A study of Mus musculus with 4 samples.

Results

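Fibronectin and the receptors through which cells hold on to it were followed across the cells of mouse ascites. The 10 genes, taken by symbol from the 32285 genes of the deposited tables, were the ligand Fn1, the integrin subunits Itga5, Itgav, Itgb1 and Itgb3, the hyaluronan receptor Cd44 and the syndecans Sdc1, Sdc2, Sdc3 and Sdc4. Female FVB mice carried intraperitoneal tumors of Br-Luc, a luciferase-labelled mouse ovarian cancer cell line, and received siRNA of the locked nucleic acid (LNA) type packed in jetPEI nanoparticles, either a control sequence (siCont) or one against Fxr1 (siFXR1-LNA). Ascites was taken 6 weeks after tumor cell injection. A red cell lysis step is described for ascites, in the paper for samples prepared for flow cytometry. Each of the 4 libraries, siCont 1 and 2 and siFXR1-LNA 1 and 2, was a pool of 3 mice, so a p-value between the groups measures the spread between pools.

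Fibronectin is a secreted glycoprotein that cells assemble into fibrils. Its cell-binding domain is held by integrins, each a pair of an alpha and a beta subunit, of which the Itga5 and Itgb1 pair is the classic fibronectin receptor and the pairs with Itgav also bind other matrix proteins. Syndecans are membrane proteoglycans whose heparan sulfate chains bind fibronectin's heparin-binding domains, and Sdc4 is a component of focal adhesions. Cd44 binds hyaluronan and, in some forms, fibronectin. In the peritoneal cavity these molecules are known for the attachment of floating tumor cells and macrophages to the mesothelium and to each other.

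Values are given as CPM, the UMIs (unique molecules counted) of a gene per 1000000 of those summed over all cells of one type in one library. A gene rose or fell where edgeR's quasi-likelihood test on these sums gave an adjusted p under 0.05 (Benjamini-Hochberg over all genes tested). The libraries held 17309 to 54665 barcodes and 78179267 to 113606837 UMIs, and the median kept cell had 1349 to 2653 UMIs. The hemoglobin share of all UMIs was 29.55% and 41.1% in siCont 1 and 2 but 10% and 9.115% in siFXR1-LNA 1 and 2. The cluster named erythrocytes held 22123 and 15795 cells of siCont 1 and 2 but 15 and 58 of siFXR1-LNA 1 and 2. A total of 41036 and 5386 cells of the siFXR1-LNA libraries, against 55 and 46 of the siCont libraries, fell into 1 shallow cluster that no marker list named. The targeted gene was not lower in the libraries labelled siFXR1-LNA, over all barcodes or in macrophages. Its level in other cell types is not given here. Fxr1 stood at 57.25 and 36.57 CPM over all barcodes of siCont 1 and 2 and at 104.4 and 74.35 CPM in siFXR1-LNA 1 and 2, and in macrophages at 65.7 and 61.0 against 73.5 and 69.0 CPM, so every direction below is between libraries by their labels. Pairs of libraries shared 575 to 2846 kept barcodes.

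Macrophages numbered 4297, 2095, 3977 and 3717 cells in siCont 1, siCont 2, siFXR1-LNA 1 and siFXR1-LNA 2, the order used throughout. The cluster that took the epithelial name held 848, 123, 1480 and 418 cells and is called Wt1-high cells here. Its mean Wt1, a mesothelial and ovarian tumor transcription factor, was 964 CPM against 103 CPM in B cells, and its Muc16 180 against 13.3 CPM, while Epcam, the defining epithelial adhesion gene, was at 8.03 against 11.7 CPM. Keratins 8, 18 and 19 (Krt8, Krt18 and Krt19) were 2.17 to 2.46 times their B cell level, and Col1a2, a fibroblast collagen, averaged 94.4 against 0.817 CPM. The labels do not say whether these cells are tumor or mesothelium.

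The 3 syndecans that changed between the groups in macrophages all had a promoter sequence in the RefSeq table for GRCm38.p6, which held 7 of the 10 genes (all but Fn1, Sdc2 and Itgb3). Their stretches before the RefSeq start are shown, 5′ to 3′ along the gene, because these 3 were the ones called in macrophages. Capitals mark GGGCGG, the core of the GC box, or CCGCCC, the same box read on the other strand. The Sdc4 window, chr2:164443189-164443438 on the minus strand, held 4 boxes and lies within an intron of a longer GENCODE transcript of the gene.
Sdc4: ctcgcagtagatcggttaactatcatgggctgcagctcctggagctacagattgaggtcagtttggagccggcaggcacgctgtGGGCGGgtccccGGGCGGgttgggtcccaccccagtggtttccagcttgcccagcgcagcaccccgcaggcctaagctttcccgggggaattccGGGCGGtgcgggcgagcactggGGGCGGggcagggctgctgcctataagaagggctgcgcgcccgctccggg
The Sdc1 stretch, chr12:8771146-8771322 on the plus strand, ends where the first GENCODE exon begins and held 2 boxes.
Sdc1: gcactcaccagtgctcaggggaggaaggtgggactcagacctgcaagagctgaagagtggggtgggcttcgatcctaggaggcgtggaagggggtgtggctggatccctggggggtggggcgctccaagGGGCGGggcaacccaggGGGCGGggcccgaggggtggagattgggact
The Sdc3 stretch, chr4:130792287-130792536 on the plus strand, held 3 boxes.
Sdc3: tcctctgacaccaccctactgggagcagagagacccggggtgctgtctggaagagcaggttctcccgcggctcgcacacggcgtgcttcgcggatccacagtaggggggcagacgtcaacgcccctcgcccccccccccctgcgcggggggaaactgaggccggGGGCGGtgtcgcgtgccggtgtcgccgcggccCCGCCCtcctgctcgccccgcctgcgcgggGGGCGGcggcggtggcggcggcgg
Of 32851 promoter windows of 250 bases in the table, 32.7% held such a box on either strand, as did 5 of the 7 windows here, with Itga5 (2 boxes) and Itgb1 (1 box) beside the syndecans and none in Cd44 and Itgav. The AP-1 motif TGANTCA, present in 6.75% of all windows, was in 0 of the 7.

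Taken as whole types, macrophages had the most Fn1 of the types plotted. Parts of a type differed, as given below for subclusters of macrophages and of Wt1-high cells. Macrophages had 1852, 3320, 1520 and 1331 CPM and the next of the types plotted, Wt1-high cells, 282, 304, 291 and 394.5 CPM, with no overlap between them. Macrophages held 78.6%, 86.4%, 65.3% and 87.1% of all Fn1 UMIs in kept cells. A further 23.9% in siFXR1-LNA 1 lay in the shallow cluster. The other types plotted overlapped one another at 50.0 to 408 CPM. Thinned to 1000 UMIs per cell, 51.6%, 55.6%, 57.8% and 53.4% of macrophages had an Fn1 UMI (71.9%, 73.9%, 86.8% and 88.0% unthinned), against 5.64% to 14.4% of thinned B cells.

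The integrin subunits were spread more widely. Among the 7 types plotted, Itgb1, the common beta subunit, was highest on average in 4 that overlapped. It ranged from 213 to 319 CPM in Wt1-high cells, 238 to 296 CPM in macrophages, 218 to 331 CPM in T cells and 218 to 241 CPM in dendritic cells (DCs). Natural killer (NK) cells and platelets were not plotted and are not ranked here. NK cells held 123, 133, 17 and 17 Itgb1 UMIs in 111, 62, 6 and 13 cells. Of the types plotted, Itgav was highest in Wt1-high cells, at 182, 175, 210 and 200 CPM. This was above every library of every other type plotted, the nearest being T cells at 38.5 to 126 CPM. Itga5, the alpha chain specific to the fibronectin receptor, overlapped between macrophages (28.5, 39.5, 49.8 and 46.5 CPM) and Wt1-high cells (23.9, 19.2, 54.6 and 40.7 CPM). Of the types plotted, Itga5 was lowest on average in B cells at 6.86 ± 6.09 CPM (SD, n = 4). Itgb3, the beta chain of the platelet fibrinogen receptor, was near its floor in macrophages at 0.578 to 2.01 CPM. The platelet cluster, which held 169 cells in siCont 2 and 4 to 10 in each other library, had 954 CPM of Itgb3 in siCont 2.

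Cd44 was highest on average in granulocytes, 364 ± 80.2 CPM (SD, n = 4), which overlapped with macrophages at 289, 432, 180 and 182 CPM. Wt1-high cells had 88.1, 109, 73.0 and 73.6 CPM and overlapped with DCs, T cells and B cells.

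The 4 syndecans divided by cell type. Sdc3 was highest in macrophages, at 592, 626, 198 and 224 CPM, and next in DCs, at 160, 174.5, 71.3 and 88.2 CPM, with at most 52.5 CPM in any other type of the plot and a mean of 15.06 CPM in granulocytes. Sdc2 was highest in Wt1-high cells, at 435, 412.5, 732 and 396 CPM, with every other type of the plot at 247 CPM or below. These cells held 35.1%, 33.1%, 20.2% and 23.3% of all Sdc2 UMIs. The shallow cluster had 328 and 124 CPM in siFXR1-LNA 1 and 2 and held 62.2% and 29.1% of the Sdc2 UMIs there, and erythrocytes held 40.9% and 42.6% in siCont 1 and 2 at 70.5 and 13.95 CPM. Sdc4 was at 526, 412, 610 and 606 CPM in Wt1-high cells, but all 7 types overlapped since its level in each other type varied with the library. Sdc1, known as a plasma cell and epithelial syndecan, was low in every type, with 30.9 CPM in macrophages of siFXR1-LNA 1 as its highest value.

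**Figure D1:**
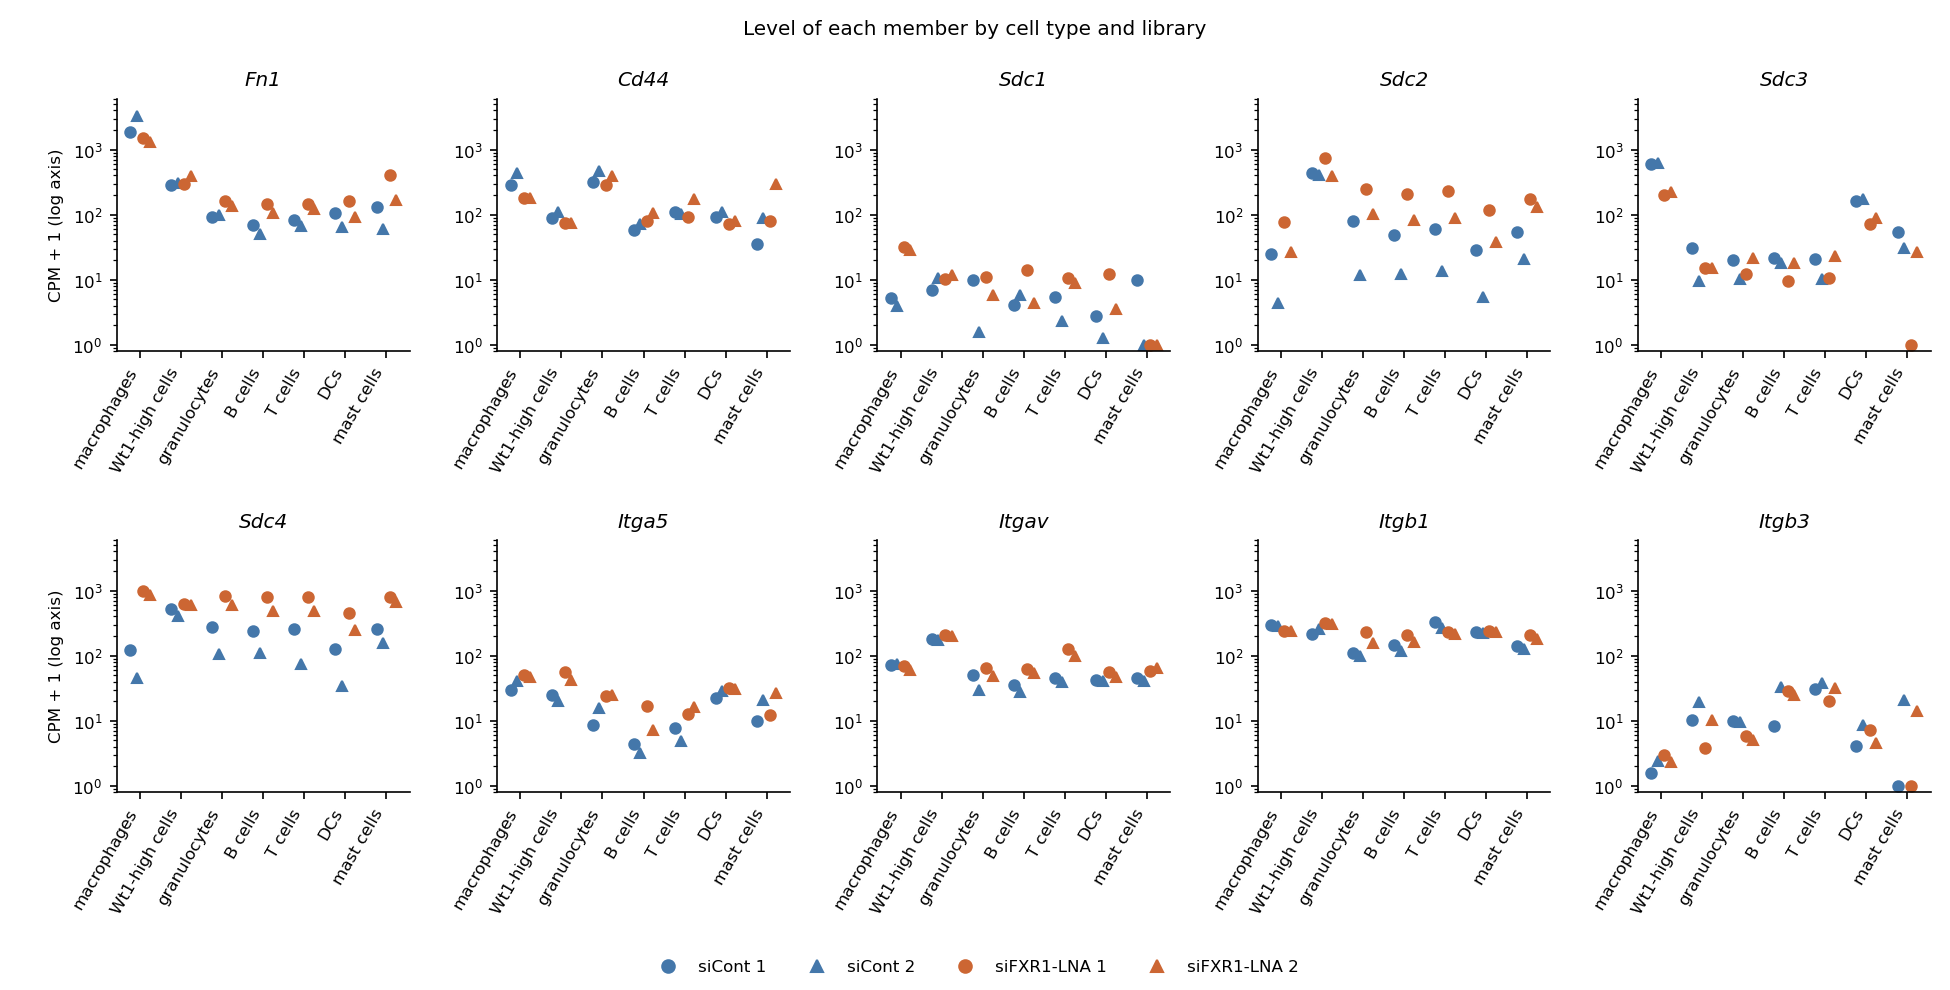
Level of each gene in 7 cell types, as CPM + 1 on a log axis, with 1 point per library (blue siCont, orange siFXR1-LNA, circles replicate 1, triangles replicate 2). Fn1 and Sdc3 were highest in macrophages in all 4 libraries and Sdc2 and Itgav in Wt1-high cells, whereas Sdc4 moved with the library in most types, from 44.4 to 986 CPM in macrophages.

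Sdc2 and Sdc4 UMIs were present in cell types that do not share a lineage, with mean Sdc2 at 32.25 CPM in macrophages and 108.8 CPM in granulocytes. Free RNA in droplets can add UMIs to any type, and its part here was not tested. Both genes were therefore set beside the UMIs of 5 epithelial and 5 mesothelial markers in the same cells. B cells, T cells and granulocytes pooled served as the reference for what such RNA brings. For Sdc2 the reference was 7.15, 5.13, 27.2 and 15.2 UMIs per 100 marker UMIs and macrophages had 7.57, 4.90, 25.8 and 16.2, which is 0.947 to 1.06 times the reference. Counted per marker UMI, Sdc2 in macrophages was thus at the level of these types in each library. Whether the reference types hold free RNA alone was not tested. Wt1-high cells had 1.4 to 3.1 times the reference ratio.

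Sdc4 in macrophages was set beside the same reference. In the siCont libraries macrophages had 38.4 and 63.6 Sdc4 UMIs per 100 marker UMIs against 33.2 and 42.1 in the reference, or 1.16 and 1.51 times. In the siFXR1-LNA libraries they had 331 and 554 against 93.5 and 89.6, or 3.54 and 6.18 times. Beyond the CPM given by the reference ratio, macrophages had 16.2 and 14.97 CPM of Sdc4 in siCont and 708 and 729 CPM in siFXR1-LNA. Wt1-high cells had 20.3, 15.9, 32.8 and 32.6 Sdc4 UMIs per 100 marker UMIs, below the reference in each library. Their mean Sdc4, 538.5 CPM, was still the highest of the types plotted. The ratio therefore compares types per marker UMI and does not measure the Sdc4 that a type makes itself. DCs had 1.00, 0.669, 1.20 and 1.12 times the reference. Macrophages had 2.64, 3.23, 8.74 and 20.7 times the reference for Sdc1, and 28.7 to 176 times for Fn1.

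**Figure D2:**
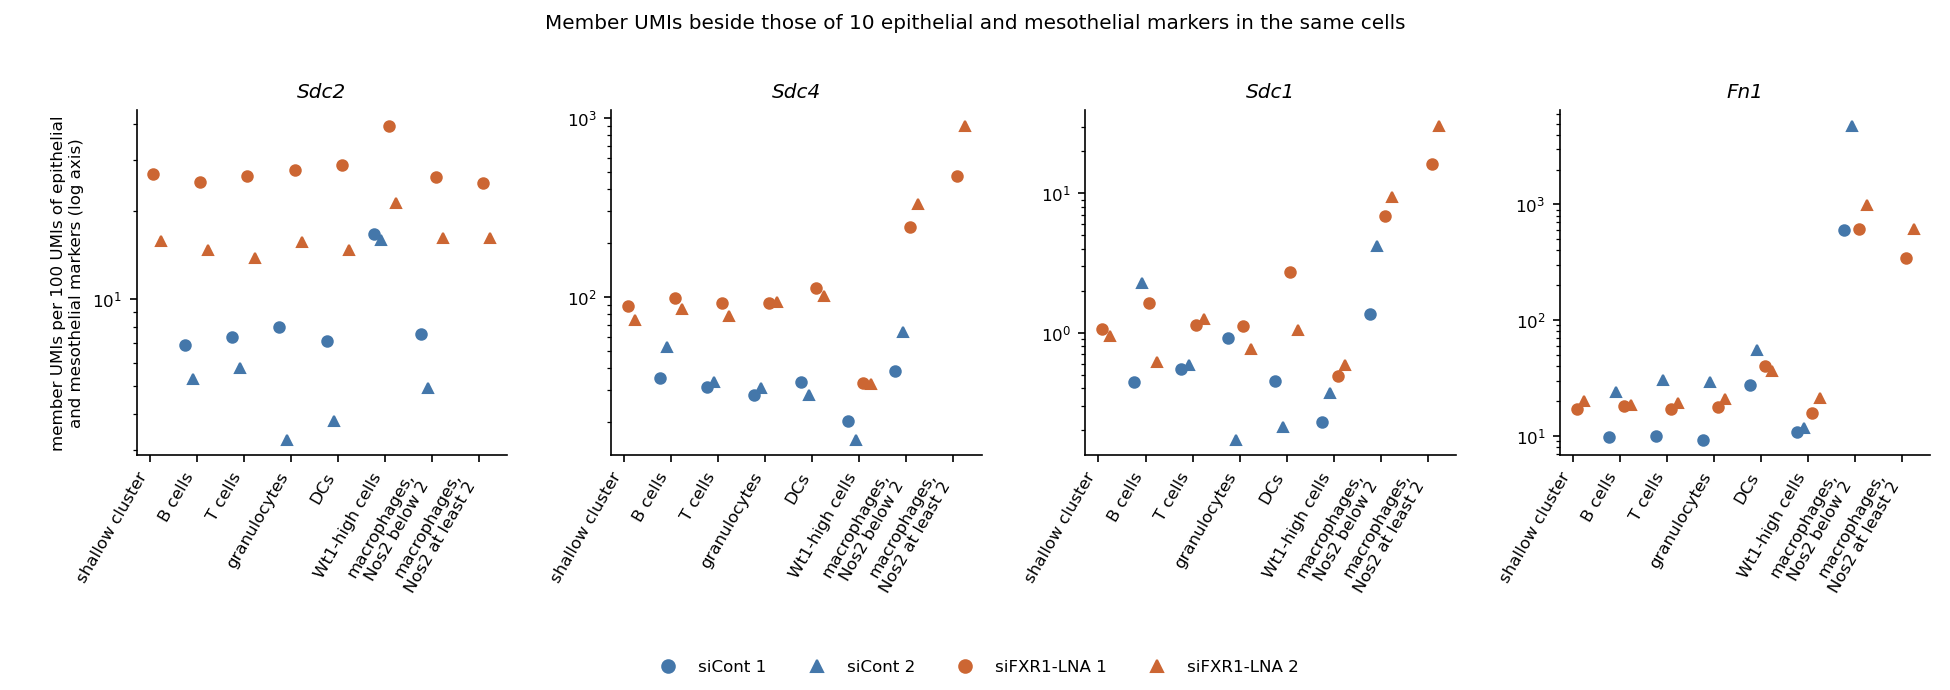
UMIs of Sdc2, Sdc4, Sdc1 and Fn1 per 100 UMIs of 10 epithelial and mesothelial markers in the same cells (log axis), with 1 point per cell type and library. Sdc2 in macrophages lay at the level of B cells, T cells and granulocytes, while Sdc4 and Sdc1 lay above it in macrophages of the siFXR1-LNA libraries, to 474.5 and 901 Sdc4 UMIs in those with at least 2 Nos2 UMIs.

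The comparison of siFXR1-LNA with siCont asked which cells changed with treatment. In macrophages 3 of the 10 genes changed, where 18.2% of the 14244 genes tested were called. Sdc4 was at 119 and 44.4 CPM in siCont 1 and 2 and at 986 and 869 CPM in siFXR1-LNA 1 and 2, and both siFXR1-LNA libraries lay above both siCont libraries. Sdc4 rose by 3.70 ± 0.497 (log2 fold change ± SE, 13-fold, adjusted p = 0.0137, edgeR). Sdc1 rose from 4.22 and 2.95 CPM to 30.9 and 27.5 CPM, a log2 change of 3.20 ± 0.209 (9.2-fold, adjusted p = 0.00503, edgeR). Its share of thinned macrophages was 0.473% and 0.487% in siCont and 2.58% and 1.92% in siFXR1-LNA (1.96%, 2.01%, 13.4% and 16.0% unthinned), against 0.29% to 1.38% of thinned B cells. Sdc3 fell by 1.35 on the log2 scale (SE 0.155, 2.55-fold, adjusted p = 0.0109, edgeR), from 592 and 626 CPM to 198 and 224 CPM, again with no overlap. Thinned shares of macrophages with an Sdc3 UMI were 40.1% and 42.2% in siCont and 17.1% and 19.6% in siFXR1-LNA (82.2%, 86.0%, 54.1% and 67.3% unthinned), against 0.92% to 2.21% of thinned B cells.

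None of the 3 calls passed without siFXR1-LNA replicate 1 (adjusted p = 0.0619 to 0.0997, edgeR), and of the 3 Sdc1 alone passed without siFXR1-LNA replicate 2 (adjusted p = 0.0474, edgeR).

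Fn1, Cd44 and the integrins did not pass the test in macrophages. Fn1 had a log2 change of -0.68 ± 0.346 (adjusted p = 0.222, edgeR) and its groups, 1852 and 3320 against 1520 and 1331 CPM, were set apart mostly by siCont 2. Cd44 had -0.82 ± 0.239 (adjusted p = 0.0749, edgeR) with 289 and 432 against 180 and 182 CPM. Itga5 had 0.68 ± 0.200 (adjusted p = 0.0760, edgeR) with 28.5 and 39.5 against 49.8 and 46.5 CPM. Itgav and Itgb1 had 0.00 and -0.08. Sdc2 had 2.11 ± 0.940 (adjusted p = 0.178, edgeR) and Itgb3 0.91 ± 0.569 (adjusted p = 0.308, edgeR). The median over the 10 genes was 0.34 against 0.007 over all genes tested. TMM normalization set the median of all genes 0.18 higher on the log2 scale than scaling to totals. Under totals Cd44 passed as well (-0.99, adjusted p = 0.0362, edgeR), and the share of all calls that were higher went from 49.9% to 31.4%.

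Marker lists of other cells moved as well. Summed over macrophages, the 5 epithelial markers had 143 and 37.6 CPM in siCont and 148 and 94.1 CPM in siFXR1-LNA, and the 5 mesothelial markers 167 and 32.3 against 150 and 62.9 CPM, so neither list was higher in both siFXR1-LNA libraries than in both siCont libraries. The 6 granulocyte markers had 111.5 and 426.5 against 1061 and 1308 CPM, with none at 0, and their part in the result was not tested. The macrophage subclusters were filled unequally by the groups. A subcluster led by Apoe, Retnla and C1qb was shared (3079, 1254, 1434 and 1476 cells), one led by Ms4a4a, Arg1 and Nos2 held 0, 2, 2517 and 2199 cells, and one with the interferon gene Irf7 and complement factor Cfb among its leading genes held 1057 and 715 cells of siCont and 0 of siFXR1-LNA.

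Within the shared subcluster alone, an alternative chosen after seeing the data, 0 of the 10 genes and 0 of all genes tested passed (1290 genes had an unadjusted p under 0.05 in edgeR, 2 of the 10 among them). Sdc4 was at 113.5, 43.4, 443 and 214 CPM (log2 change 2.08, adjusted p = 0.444, edgeR) and at 1.14, 1.46, 1.21 and 1.26 times the reference ratio. Sdc1 was at 3.47, 2.71, 8.60 and 3.49 CPM (0.95, adjusted p = 0.575, edgeR). Sdc3 was at 603, 639, 341 and 416 CPM (-0.72, adjusted p = 0.436, edgeR), so its libraries stayed in the same order with a smaller difference. Fn1 there was at 2335, 5272, 3254 and 2258 CPM, and the groups overlapped. In the Nos2-rich subcluster Sdc4 was at 1178 and 1181 CPM and Fn1 at 928 and 906 CPM in siFXR1-LNA 1 and 2. In the siCont subcluster with Irf7, Fn1 was at 481.5 and 433 CPM and Sdc3 at 591 and 636 CPM. Sdc3 and Fn1 were among the leading genes of these subclusters, so their levels between subclusters are a description.

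**Figure D3:**
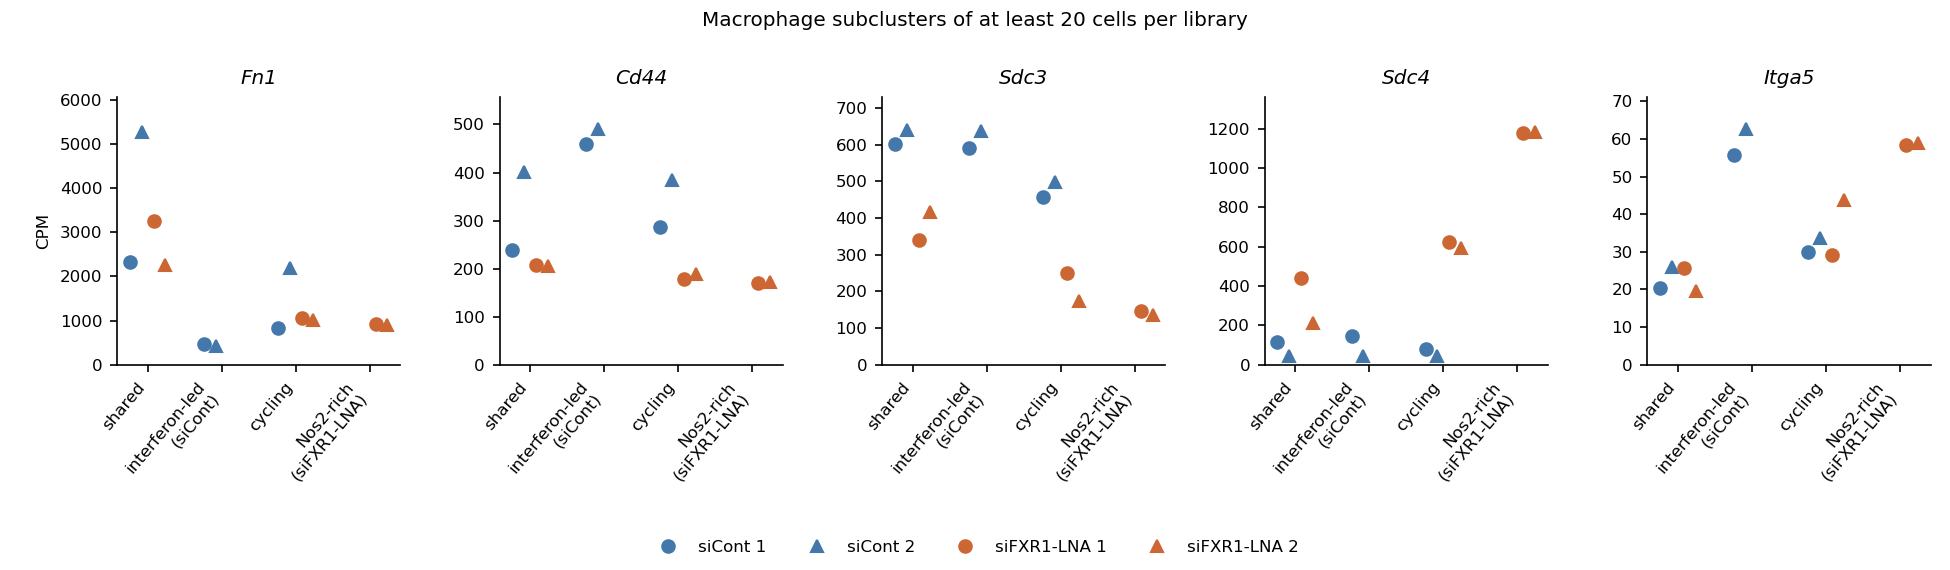
Levels of 5 genes in the macrophage subclusters (CPM, 1 point per library, subclusters of at least 20 cells in a library). Sdc4 reached 1178 and 1181 CPM in the Nos2-rich subcluster of the siFXR1-LNA libraries and stayed at 443 CPM or below in the shared one, while Fn1 was highest in the shared subcluster.

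Macrophages were also divided by their Nos2 UMIs, Nos2 being the inducible nitric oxide synthase. At least 2 Nos2 UMIs were found in 1429 (35.93%) and 1394 (37.5%) macrophages of siFXR1-LNA 1 and 2, in 0 of 4297 in siCont 1, which allows a share of up to 0.0698%, and in 0 of 2095 in siCont 2, up to 0.143% (counting error only). The groups could not be compared at 2 or more for this reason. Below 2, the same 3 syndecans differed between the groups, where 5.24% of 13760 genes were called. This set still held cells of the Nos2-rich subcluster, nearly all from the siFXR1-LNA libraries. Of its 2517 and 2199 cells there, 1390 and 1358 had at least 2 Nos2 UMIs, and the others stayed below 2. The siCont libraries had 0 and 2 cells in that subcluster. The part of these cells in the result was not tested. Sdc4 rose from 119 and 44.4 CPM to 831 and 590 CPM (log2 change 3.21 ± 0.522, adjusted p = 0.0421, edgeR). Sdc1 rose from 4.22 and 2.95 to 23.2 and 16.6 CPM (2.55 ± 0.294, adjusted p = 0.0282, edgeR). Sdc3 fell by 1.19 on the log2 scale (SE 0.180, adjusted p = 0.0382, edgeR), to 224 and 284 CPM. None of the 3 passed without siFXR1-LNA replicate 1, without siFXR1-LNA replicate 2 or without siCont replicate 2. Median depth in cells below 2 was 4888, 7920, 4448 and 7343 UMIs, and at 2 or more 7098 and 10931.5 UMIs, so that the split takes deeper cells into the upper state.

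Within the siFXR1-LNA libraries the 2 states were compared with the library as a block. Only these 2 libraries enter, so a p-value here measures how alike the state difference was in both pools. There 6 of the 10 genes changed, where 24.4% of 13152 genes were called. Fn1 was at 2091 and 1773 CPM below 2 and 841 and 816 CPM at 2 or more, and fell by 0.98 on the log2 scale (SE 0.174, 1.97-fold, adjusted p = 1.402e-04, edgeR). Sdc4 went from 831 and 590 CPM to 1169 and 1195 CPM and rose by 0.99 ± 0.173 (adjusted p = 1.054e-04, edgeR), and Sdc1 from 23.2 and 16.6 CPM to 40.1 and 40.3 CPM, by 1.28 ± 0.128 (adjusted p = 4.631e-08, edgeR). Sdc3 fell by 0.41 (SE 0.123, adjusted p = 0.0152, edgeR), from 224 and 284 CPM to 167 and 155 CPM. Itga5 was at 47.2 and 39.0 CPM and then at 53.0 and 55.1 CPM, a rise of 0.58 ± 0.114 (adjusted p = 4.405e-04, edgeR). Itgav was called at 0.33 ± 0.104 (adjusted p = 0.0226, edgeR), but its CPM barely moved, from 66.2 and 57.6 to 72.8 and 59.2.

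Of these 6, DESeq2 called Fn1, Sdc1 and Sdc4 only (Sdc3 adjusted p = 0.0971, Itga5 0.0519 and Itgav 0.374). With cells named from their own marker UMIs Sdc3 turned to 0.33 (adjusted p = 0.36, edgeR), and neither Fn1 (-0.25, adjusted p = 0.611, edgeR) nor Itgav (0.12, adjusted p = 0.746, edgeR) passed.

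Scaling moved 3 of the calls between states. TMM moved the median of all genes by 0.24 on the log2 scale and changed the share of calls that were higher from 17.4% under totals to 51.2%. Under totals Itgav was at 0.09 (adjusted p = 0.545, edgeR) and no longer passed, while Cd44 (-0.43, adjusted p = 0.00726) and Sdc2 (-0.48, adjusted p = 0.00575) did (edgeR). Itgb1 was at 0.03 under TMM and at -0.21 under totals and passed under neither. The median over the 10 genes was -0.05, against -0.018 over all genes tested. Sdc4 above the reference ratio was 513 and 431 CPM below 2 and 939 and 1077 CPM at 2 or more.

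In finer bins Fn1 was lower in each step of higher Nos2 in both siFXR1-LNA libraries, shown as a description. Fn1 was at 2322, 1336, 1025, 849 and 754 CPM in siFXR1-LNA 1 and at 1873, 1323, 1021, 915 and 710 CPM in siFXR1-LNA 2 over cells with 0, 1, 2, 3 to 5 and 6 or more Nos2 UMIs. Sdc4 went from 750 and 517.5 CPM at 0 to 1170 and 1124 CPM at 2 and changed little beyond. Sdc1 went from 20.2 and 15.5 CPM at 0 to 44.6 and 34.9 CPM at 2. Sdc3 was at 248 and 305 CPM at 0 and at 146 and 190 CPM at 1, and was higher again at 6 or more than at 2 in both libraries. Macrophages with 0 Nos2 UMIs in siCont had 119 and 44.4 CPM of Sdc4 and 592.5 and 626 CPM of Sdc3, outside the siFXR1-LNA values at 0 for both genes.

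**Figure D4:**
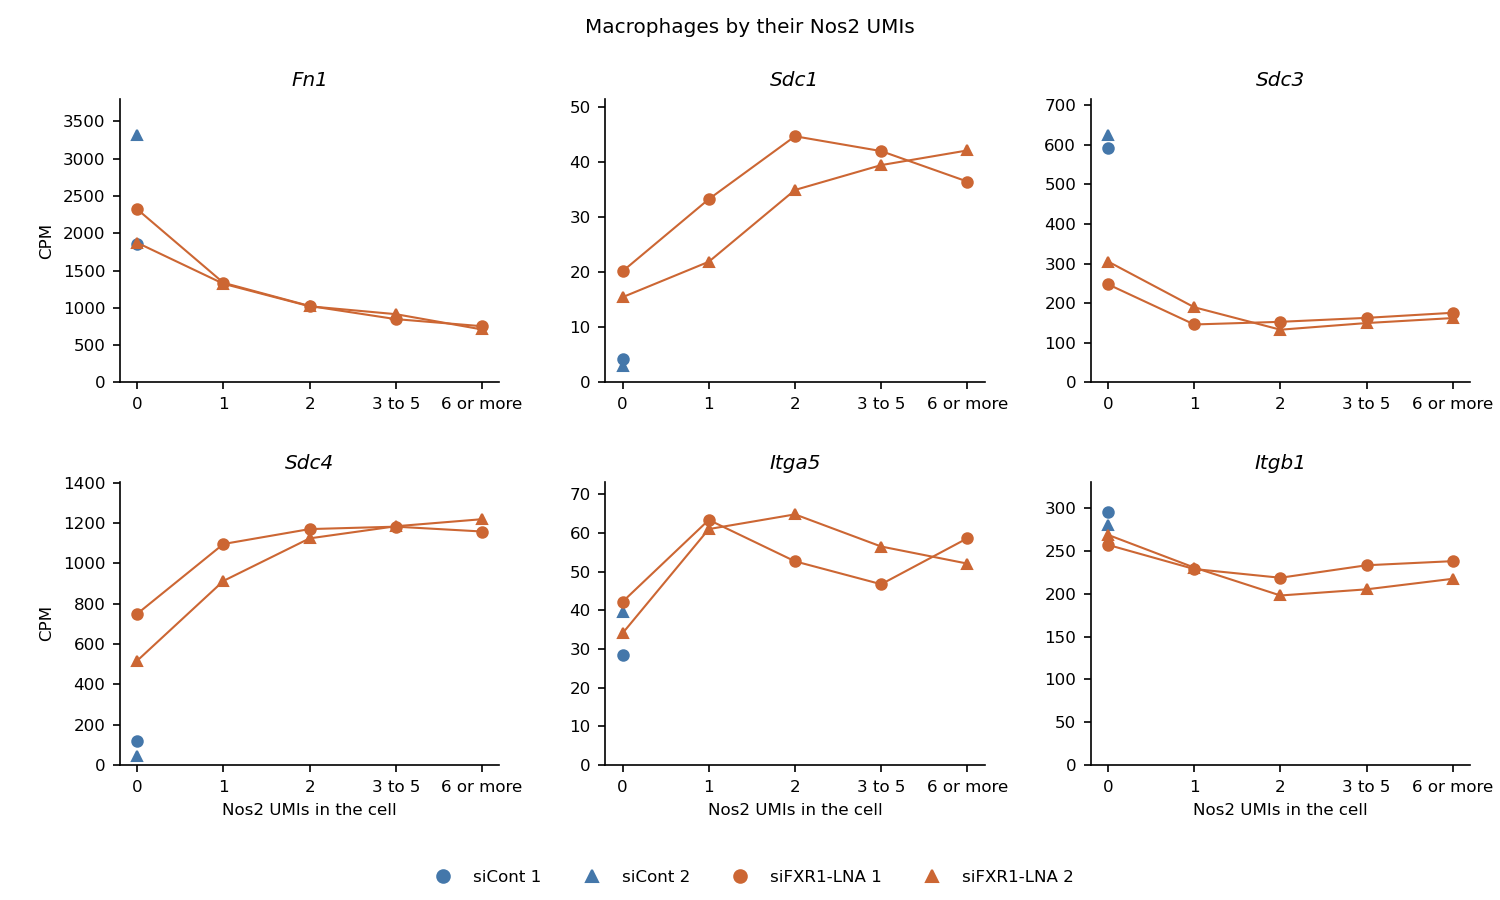
CPM of 6 genes over macrophages binned by the Nos2 UMIs of the cell, with lines for the siFXR1-LNA libraries and points for the siCont libraries, which had at most 4 cells above 0. Fn1 was lower in each higher bin in both siFXR1-LNA libraries, from 2322 and 1873 CPM at 0 to 754 and 710 CPM at 6 or more, and Sdc4 was higher at 2 than at 0, 1170 and 1124 against 750 and 517.5 CPM.

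In Wt1-high cells 1 of the 10 genes changed, where 7.52% of 13144 genes were called. Itga5 rose from 23.9 and 19.2 CPM to 54.6 and 40.7 CPM (log2 change 1.16 ± 0.285, 2.23-fold, adjusted p = 0.0374, edgeR), and the groups did not overlap. The cells of the 2 groups lay mostly in different subclusters, with 1135 and 277 siFXR1-LNA cells in one that held 9 and 5 siCont cells, and 552 and 79 siCont cells in another that held 30 and 13. In that second subcluster Itga5 was at 21.2, 18.2, 51.4 and 41.1 CPM, with the siFXR1-LNA values from 30 and 13 cells only. In a subcluster of 175, 25, 80 and 67 cells it was at 25.0, 23.9, 27.3 and 15.9 CPM, with no separation. The 6 granulocyte markers summed over Wt1-high cells had 97.9 and 159 CPM in siCont and 1250 and 842.5 CPM in siFXR1-LNA. Their part in the result was not tested. Itga5 did not pass without siCont replicate 1 (1.29, adjusted p = 0.0935, edgeR) or without siFXR1-LNA replicate 1 (0.84, adjusted p = 0.15, edgeR). Sdc4 had 526 and 412 against 610 and 606 CPM and a log2 change of 0.40 ± 0.257 (adjusted p = 0.39, edgeR). Sdc2, Fn1, Itgb1 and Itgav had log2 changes of 0.46, 0.24, 0.44 and 0.23, and Cd44, Sdc1, Sdc3 and Itgb3 of -0.39, 0.52, -0.59 and -1.20, none of which passed. The median over the 10 genes was 0.32, against 0.003 over all genes.

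Fn1 also varied inside the Wt1-high cells. A subcluster with raised fibroblast markers (112, 14, 235 and 61 cells) had 856, 1462, 619 and 1000 CPM of Fn1, and the other 3 had at most 309 CPM in any library. Sdc4 was highest in the subcluster that kept the epithelial name, at 1018, 867, 1210 and 934 CPM, against 607 CPM or less in the others. Both orders held in all 4 libraries and are descriptions, since the cells were clustered on their expression.

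The difference of the group effect between macrophages and Wt1-high cells was tested itself. For 2 of the 10 genes it passed, where 0.659% of 15936 genes were called. The change of Sdc4 was larger in macrophages by 3.37 ± 0.432 on the log2 scale (adjusted p = 0.0162, edgeR) and that of Sdc1 by 2.57 ± 0.458 (adjusted p = 0.0451, edgeR). Under scaling to totals neither passed, with 3.27 (adjusted p = 0.0528, edgeR) and 2.47 (adjusted p = 0.109, edgeR), nor did either without siFXR1-LNA replicate 1 (3.42, adjusted p = 0.202, and 2.51, adjusted p = 0.447, edgeR). For Itga5, which was called in Wt1-high cells and not in macrophages, the difference was -0.44 ± 0.366 (adjusted p = 0.655, edgeR), and an effect confined to Wt1-high cells was not shown.

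In DCs 1 of the 10 genes changed, where 2.5% of 12338 genes were called. Sdc3 was at 160 and 174.5 CPM in siCont and 71.3 and 88.2 CPM in siFXR1-LNA and fell by 1.07 on the log2 scale (SE 0.168, 2.1-fold, adjusted p = 0.0362, edgeR), as it did in macrophages. The macrophage markers in these DCs summed to 2716, 1058, 1714 and 2834 CPM, against 19700 to 41680 CPM in macrophages, and did not separate the groups. The call did not pass without siFXR1-LNA replicate 1 (-0.96, adjusted p = 0.121, edgeR) or replicate 2 (-1.24, adjusted p = 0.0551, edgeR). Sdc1, Sdc2 and Sdc4 had 2.61, 2.19 and 2.12 in DCs (adjusted p = 0.226, 0.224 and 0.138, edgeR). Fn1 and Cd44 had 0.54 and -0.43, and Itga5, Itgav, Itgb1 and Itgb3 had 0.30, 0.31, 0.06 and -0.20, none past the threshold.

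Granulocytes, B cells and T cells had 0 of the 10 genes called, where 2.94%, 0.112% and 0.291% of genes were called and 2221, 1786 and 1381 genes had an unadjusted p under 0.05 in edgeR. DESeq2 called 1, 2 and 3 of the 10. Sdc4 was higher in both siFXR1-LNA libraries in all 3 types, at 277 and 103 against 828 and 592 CPM in granulocytes, 239 and 111 against 797 and 481 CPM in B cells, and 253 and 72.5 against 790 and 491.5 CPM in T cells. These are the types that served as reference for free RNA. Their log2 changes of Sdc4 were 1.74, 1.70 and 1.84 (adjusted p = 0.084, 0.209 and 0.363, edgeR), and those of Sdc2 were 1.90, 2.12 and 2.00. Sdc1 had 0.84, 0.93 and 1.48, and Sdc3 0.04, -0.75 and -0.03. Fn1 had 0.39, 0.92 and 0.73, and Cd44 -0.46, 0.30 and 0.16. Among the integrins Itga5 had 0.67, 1.81 and 1.19, Itgav 0.32, 0.73 and 1.28, Itgb1 0.63, 0.29 and -0.56, and Itgb3 -1.24, 0.22 and -0.59. The shallow cluster held 61.3% and 15.3% of all Sdc4 UMIs in siFXR1-LNA 1 and 2 and 0.112% and 0.381% in siCont, and whether it was the source of Sdc4 UMIs in other droplets was not tested.

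**Figure D5:**
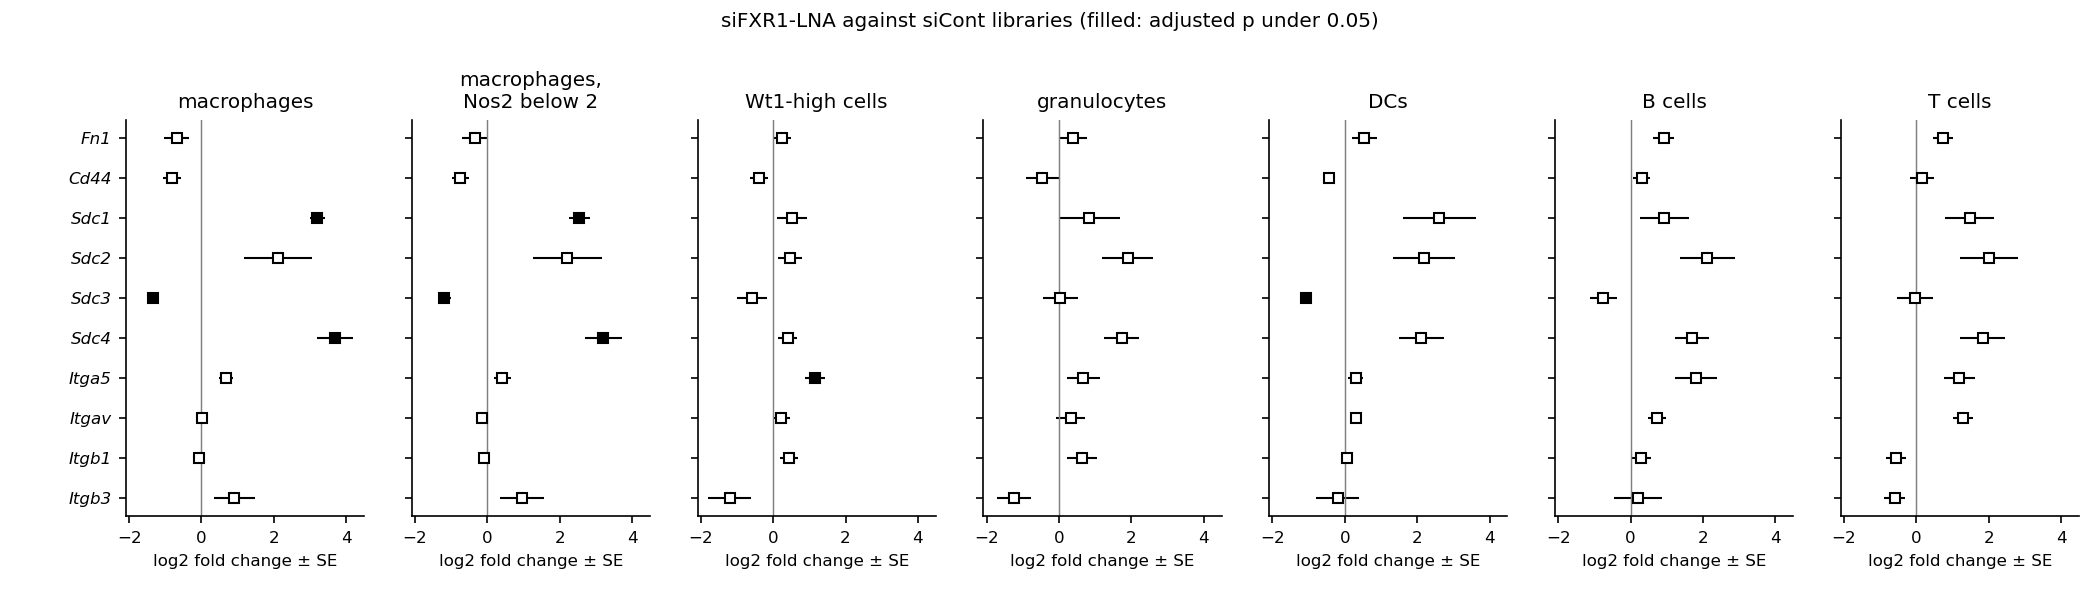
Log2 fold change of each gene, siFXR1-LNA against siCont, with its standard error in 7 cell types (edgeR on 2 against 2 libraries, filled squares for adjusted p under 0.05). Sdc1 and Sdc4 passed upward and Sdc3 downward in macrophages, with and without the cells of at least 2 Nos2 UMIs, Itga5 passed in Wt1-high cells and Sdc3 in DCs.

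Other genes of the pathway, from lists chosen by function, were counted beside these. The shares of all genes called were 18.2% in macrophages (1290 higher and 1296 lower), 7.52% in Wt1-high cells (370 higher and 618 lower) and 24.4% between the states, and no list is read as standing apart from them. In macrophages 0 of 17 other integrin subunits tested rose and 4 fell. Itgax, the alpha chain of complement receptor 4, was at 24.9 and 38.9 CPM in siCont and at 4.19 and 3.58 CPM in siFXR1-LNA, and fell by 2.86 on the log2 scale (adjusted p = 0.00889, edgeR). Itgal, the alpha chain of the leukocyte integrin LFA-1, fell by 1.73, and Itgb7, the partner of Itga4 and Itgae, by 1.16. Of 24 adaptors and focal adhesion genes 1 fell, Tln1, the talin that activates integrins, from 820 and 813 to 385.5 and 471 CPM (-0.75, adjusted p = 0.0435, edgeR). Of 13 other ligands of RGD-binding integrins 0 changed.

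Of 12 hyaluronan genes tested in macrophages 2 rose and 2 fell. Lyve1, a hyaluronan receptor of tissue macrophages and lymphatics, was at 271 and 171 CPM in siCont and 11.8 and 25.5 CPM in siFXR1-LNA (-3.38, adjusted p = 0.0128, edgeR). Hyal1, a hyaluronidase, rose from 2.85 and 2.60 to 12.2 and 14.2 CPM (2.46, adjusted p = 0.00627, edgeR), and Tnfaip6, a secreted hyaluronan-binding protein, from 0.178 and 0.472 to 2.10 and 2.31 CPM (2.97, adjusted p = 0.0252, edgeR). Among 20 heparan sulfate genes and syndecan partners 2 rose and 1 fell. Gpc1, another heparan sulfate proteoglycan, rose from 1.16 and 1.24 to 3.76 and 4.77 CPM (2.01, adjusted p = 0.0164, edgeR), and Ndst2, a sulfotransferase that modifies the chains, fell by 0.94. Hs6st1, another such enzyme, rose by 0.59.

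In Wt1-high cells 2 of 15 other ligands of RGD-binding integrins rose and 0 fell. Thbs1, thrombospondin, went from 22.2 and 29.7 to 115 and 90.8 CPM (2.09, adjusted p = 0.00336, edgeR) and Ccn2, a matricellular protein, from 169 and 145 to 468 and 422 CPM (1.53, adjusted p = 0.00785, edgeR). Ccn2 was also the leading gene of the shallow cluster. In granulocytes Ccn2 rose as well, from 62.8 and 20.5 to 521 and 206 CPM (adjusted p = 0.0293, edgeR). Of 14 hyaluronan genes 1 rose and 3 fell. Cemip, which takes part in hyaluronan breakdown, fell from 17.5 and 25.9 to 3.59 and 0.626 CPM (-3.00, adjusted p = 0.0152, edgeR), Lyve1 by 2.68 on the log2 scale and Hmmr, a hyaluronan-binding protein of dividing cells, by 1.98. Lyve1 went from 20.1 and 5.76 to 2.13 and 2.19 CPM in Wt1-high cells, where macrophages went from 271 and 171 to 11.8 and 25.5 CPM. In granulocytes Lyve1 fell as well, from 26.9 and 11.4 to 1.05 and 3.09 CPM (-3.32, adjusted p = 0.0181, edgeR). The part of macrophage RNA in Lyve1 of Wt1-high cells and granulocytes was not tested. Of 20 heparan sulfate genes and syndecan partners 2 rose and 1 fell. Tiam1, a Rac exchange factor, fell from 94.4 and 157 to 48.95 and 40.4 CPM (-1.43, adjusted p = 0.0219, edgeR), and Hs6st1 rose by 1.26. Prkca, a kinase partner of Sdc4, rose from 495 and 526 to 1276 and 973 CPM (1.17, adjusted p = 0.0369, edgeR). Itgam, an integrin chain of granulocytes and macrophages, rose by 2.06 on the log2 scale in these cells, beside the granulocyte markers given above, and by 2.10 in T cells, from 13.2 and 14.4 to 65.6 and 66.9 CPM. The granulocyte markers in T cells summed to 72.1 and 444 CPM in siCont and 686 and 701 CPM in siFXR1-LNA, and their part in it was not tested. Tns1, a focal adhesion tensin, fell by 1.13 in Wt1-high cells and by 1.91 in granulocytes. Itgax fell in granulocytes too, from 17.9 and 10.8 to 2.36 and 3.43 CPM (-2.48, adjusted p = 0.0253, edgeR). In granulocytes 2.94% of 12326 genes were called.

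Between the macrophage states 3 of 15 other integrin subunits rose and 5 fell, where 51.2% of all calls were higher under TMM and 17.4% under totals. The largest were Itga6, a laminin receptor chain, at -1.92 (adjusted p = 9.502e-12, edgeR), and Itga9 at 0.88 (adjusted p = 1.127e-06, edgeR). Of 12 other ligands tested 2 rose and 2 fell, and of 12 hyaluronan genes 4 rose and 3 fell. Of 24 adaptors 0 rose and 3 fell, and of 18 heparan sulfate genes and syndecan partners 3 rose and 3 fell. Lyve1 was at -3.35, Hyal1 at 1.80, Thbs1 at 1.00 and Tgm2, a transglutaminase that crosslinks fibronectin, at 0.71, all past the threshold. The ligands that fell and the other genes called in these lists are not named here.

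Over 34 sums of at least 50 cells, of up to 10 cell types in the 4 libraries, the genes whose log2 level followed Fn1 most closely were Mertk (Pearson's r = 0.921), an engulfment receptor of macrophages, Sash1 (0.89) and Lrp1 (0.88), an endocytic receptor. Those nearest to Sdc4 were Hspb1 (0.922), Ccn2 (0.915) and Scd2 (0.906), and Hspb1 and Ccn2 are among the 10 leading genes of the shallow cluster. The sums share libraries and cell types, and the values are a description.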

How the data were processed

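Single cells of mouse ascites were profiled in 4 libraries, 2 labelled siCont and 2 labelled siFXR1-LNA. Each library was a pool of 3 mice. The authors deposited tables of raw, whole-number UMI counts, which the submitters' processing notes credit to Cell Ranger 7.0.0 and mm10. The study's methods leave out 1 siFXR1-LNA replicate, for fewer reads and cells, that the labels do not identify, and both were used here. Of the siFXR1-LNA libraries, siFXR1-LNA 2 had fewer barcodes and UMIs. The 10 genes, the lists and the comparisons were chosen with earlier results of these data known. After the study's methods, cells needed 100 to 4800 detected genes, and those above 15% mitochondrial UMIs were dropped. This kept 36311, 25115, 54344 and 16874 cells, together far more than the paper reports, so the cells here are not its cell set. Louvain clustering in Seurat 5.3.0 (R 4.3.3) used 2000 variable genes, 50 principal components and a resolution of 0.1 on all libraries together, without integration. No doublet caller was run.

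A marker counted as raised when its CPM was at least 2 times that of all other clusters on average (10 CPM added to both) and 5% of cells held it, and 3 raised markers gave a name. This rule was written after clusters had been seen. The mesothelial list gave no names, and erythrocytes needed a median of 30% hemoglobin UMIs. Clusters named macrophages, T cells or epithelial cells were clustered again, and a macrophage subcluster with raised B cell markers (427, 135, 18 and 41 cells) was set aside, as was a T cell subcluster with raised granulocyte markers (7, 33, 62 and 88 cells). All 10 genes were named in each group comparison by cell type. Other pathway genes were named when called with groups not overlapping, at most the 3 largest changes per list. In macrophages with Nos2 below 2 these were Lyve1, Hmmr, Itgax and Itgb7, which fell, and Hyal1, which rose. Between the states only some of the genes called are named.

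Sums of UMI counts over each type in a library were tested with edgeR 4.0.16 (TMM, filterByExpr, quasi-likelihood test, Benjamini-Hochberg over all genes, threshold 0.05) in macrophages, Wt1-high cells, granulocytes, B cells, T cells and DCs, which had at least 10 cells in every library. Mast cells and erythrocytes also had, and were not tested here. All 10 genes passed the filter on low counts in each comparison. States and the difference between types used the library as a block. Scripts were tested on simulated data. Alternatives were at least 500 genes per cell, a resolution of 0.3, cells named from their own marker UMIs, mixed subclusters kept in, DESeq2 1.42.0, upper-quartile scaling, no filter, a replicate block, thinning to 1000 UMIs, Nos2 limits of 1 and 3 and each library left out. Scaling to totals and the shared subcluster alone were added after seeing the data. Promoters are from RefSeq (GRCm38.p6) and gene places from GENCODE vM21. The reference ratio is the UMIs of a gene per 100 marker UMIs in B cells, T cells and granulocytes together. Shares of cells with a UMI used cells thinned to 1000 UMIs, and floors cover counting error only.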

Additional observations from a re-analysis of the deposited data

Results flagged for a closer look

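The change from siCont to siFXR1-LNA differed between macrophages and Wt1-high cells for 2 genes, by the test of the difference itself (edgeR, p adjusted over 15936 genes). The difference was tested between 2 cell types of the same libraries, as an interaction. For Sdc4 it was 3.37 on the log2 scale (adjusted p = 0.0162, edgeR), with 119 and 44.4 CPM in siCont and 986 and 869 CPM in siFXR1-LNA macrophages, against 526, 412, 610 and 606 CPM in Wt1-high cells. Sdc1 differed by 2.57 (adjusted p = 0.0451, edgeR), from 4.22 and 2.95 CPM to 30.9 and 27.5 CPM in macrophages, against 5.94, 9.59, 9.21 and 10.96 CPM in Wt1-high cells. Neither passed under scaling to totals (3.27, adjusted p = 0.0528, and 2.47, adjusted p = 0.109, edgeR). Sdc1 also did not pass under upper-quartile scaling (adjusted p = 0.0742, edgeR), thinning (adjusted p = 0.184, edgeR) or naming of cells from their own marker UMIs (adjusted p = 0.216, edgeR). Neither passed without siFXR1-LNA replicate 1 (Sdc4 3.42, adjusted p = 0.202, and Sdc1 2.51, adjusted p = 0.447, edgeR). Both siFXR1-LNA libraries lay above both siCont libraries in macrophages for both genes. Within the shared macrophage subcluster alone the log2 changes were 2.08 for Sdc4 and 0.95 for Sdc1, and neither passed. Sdc4 also had log2 changes of 1.74, 1.70, 1.84 and 2.12 in granulocytes, B cells, T cells and DCs, none past the threshold. No group held 4 or more libraries, so single libraries were not screened as outlying.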

How the results depend on the processing

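The limits are these. Each group had 2 libraries, and the lone library of an arm in a leave-one-out fit is assumed to vary like the other group. Cells of unlike type or depth within a named type were not removed beyond the steps given. Sdc1 in macrophages passed in 13 of 15 alternatives (log2 change 0.95 to 3.45, adjusted p = 1.278e-25 to 0.575 over edgeR and DESeq2), and Sdc3 and Sdc4 in 11 each (-1.69 to -0.72 and 2.08 to 4.53). Sdc1 and Sdc4 between the states passed in 13 of 13, 2 of them the fits without a siCont library that cannot differ (1.04 to 1.61 and 0.76 to 1.12), Fn1 in 12 (-1.22 to -0.25) and Itgav in 9 (0.09 to 0.45). Itga5 in Wt1-high cells passed in 8 of 12 (0.47 to 1.40), Sdc3 in DCs in 11 of 14 (-1.46 to -0.96), and for the difference between types Sdc4 in 9 of 11 and Sdc1 in 6. The cause of a change between alternatives was not tested.

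Counts of the 10 genes called moved by over 1.5 times as follows. With cells named from their own marker UMIs, 1 was called in macrophages, 0 in macrophages with Nos2 below 2, 0 in Wt1-high cells and 0 in DCs. With DESeq2 there were 5 in macrophages, 0 in Wt1-high cells, 1 in granulocytes, 2 in B cells, 3 in T cells and 3 between the states. Without the filter on low counts there were 6 in macrophages, 5 below 2 Nos2 UMIs, 3 in B cells, 3 in T cells, 4 in DCs and 4 for the difference between types. A Nos2 limit of 1 gave 1 below it. Upper-quartile scaling gave 1 and scaling to totals 0 for the difference between types, and the shared macrophage subcluster gave 0. Leaving out 1 library at a time gave 0 to 5 in macrophages, 0 to 2 below 2 Nos2 UMIs, 0 to 3 in Wt1-high cells, 0 to 3 in granulocytes, 0 to 3 in B cells, 0 to 2 in T cells, 0 to 5 in DCs, and 0 to 4 for the difference. Between the states it gave 6 to 6 without either siCont library, which do not enter that fit and so bear on nothing. Calls over all genes moved too. Cells named from their own marker UMIs gave 36 in macrophages (2586 as reported), 0 below 2 Nos2 UMIs (721), 136 in Wt1-high cells (988), 150 in granulocytes (363), 30 in B cells (14), 90 in DCs (309) and 355 for the difference (105). DESeq2 gave 1660 below 2 Nos2 UMIs, 610 in granulocytes, 449 in B cells, 340 in T cells (35), 694 in DCs, 1132 between the states (3206) and 215 for the difference. No filter gave 3887 in macrophages, 2479 below 2 Nos2 UMIs, 1930 in Wt1-high cells, 0 in granulocytes, 1207 in B cells, 917 in T cells, 1756 in DCs and 969 for the difference. Thinning gave 92 in B cells, 80 in T cells, 1433 between the states and 258 for the difference, a Nos2 limit of 1 gave 335, upper-quartile scaling 220 in granulocytes, and totals 53 in T cells and 21 for the difference. Leaving out 1 library at a time gave 11 (without siFXR1-LNA 1) to 1613 (without siCont 1) in macrophages, 0 (without either siFXR1-LNA library) to 229 (without siCont 1) below 2 Nos2 UMIs, and 605 (without siCont 1) to 1929 (without siFXR1-LNA 2) in Wt1-high cells. The highest counts elsewhere came without siCont 1, with 152 to 2338 in granulocytes, 0 to 1145 in B cells, 25 to 386 in T cells, 59 to 1322 in DCs and 0 to 718 for the difference, so the shares of genes called given beside each result move with single libraries. Under totals the share of all granulocyte calls that were higher went from 30.3% to 49.8%.

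Libraries 1 and 2 of both groups share numbers in the labels, and same-numbered libraries deviated together with r of 0.356 in macrophages, 0.294 below 2 Nos2 UMIs, 0.00116 in Wt1-high cells, 0.405 in granulocytes, 0.323 in B cells, 0.324 in T cells and 0.219 in DCs. With 2 pairs the numbers were not taken as a pairing. A replicate block gave 6 genes in macrophages, 2 in Wt1-high cells, 2 in granulocytes, 3 in B cells, 3 in T cells and 4 in DCs. Over all genes it gave 1483 calls instead of 721 below 2 Nos2 UMIs, 1610 instead of 988 in Wt1-high cells, 1006 instead of 363 in granulocytes, 876 instead of 14 in B cells, 421 instead of 35 in T cells and 1198 instead of 309 in DCs. Sdc3 in T cells changed sign to 0.03 with the block.

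Other changes of sign were in genes that were not called, but for Sdc3 between the states. With cells named from their own marker UMIs Sdc3 between the states was at 0.33, Cd44 there at 0.38, Itgav below 2 Nos2 UMIs at 0.16, Sdc3 in granulocytes at -0.75, Sdc1 in B cells at -0.73 and Cd44 in T cells at -0.06. Thinning gave Sdc3 at -0.09 in granulocytes and 0.01 in T cells, and at least 500 genes per cell gave -0.04 in granulocytes. Scaling to totals gave Sdc3 at 0.16 in T cells and Itgb1 at -0.21 between the states, upper-quartile scaling Itgb1 at -0.02, and the shared subcluster Itga5 at -0.03. Leaving out 1 library at a time, the log2 change ran from -0.73 to 0.16 for Fn1 below 2 Nos2 UMIs, from -1.01 to 0.67 for Sdc3 and -0.14 to 0.88 for Sdc2 in Wt1-high cells, from -0.75 to 0.06 for Cd44, -0.32 to 3.38 for Sdc1 and -0.51 to 0.49 for Sdc3 in granulocytes, from -0.5 to 1.59 for Itgb3 and -0.41 to 1.6 for Sdc1 in B cells, from -0.65 to 0.58 for Sdc3 and -0.3 to 0.47 for Cd44 in T cells, and from -0.74 to 0.55 for Itgb3 in DCs. Groups at 2 or more Nos2 UMIs could not be fitted, nor Wt1-high cells and the difference between types at 500 genes or a resolution of 0.3, nor the states without either siFXR1-LNA library.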
